A study of Homo sapiens with 12 samples.

Results

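The genes described here are the cadherins and protocadherins measured in SK-MEL-2, an established melanoma cell line of human origin, chosen by symbol: every gene named CDH followed by a number, or PCDH followed by letters and digits, each represented by its brightest probe set. They number 34 of the 14582 genes that could be named on the arrays. Of these, 13 are non-clustered protocadherins, 19 belong to the protocadherin beta cluster (16 protein-coding genes and 3 pseudogenes) and 2 are CDH genes, CDH23 and CDH26, so that the set is in practice one of protocadherins. RefSeq holds 97 genes that meet the rule. The other 63, among them the classical cadherins CDH1, CDH2, CDH3 and CDH19, T-cadherin (CDH13) and the protocadherin alpha and gamma clusters, are not analysed here. The arms number 4, each with 3 Affymetrix arrays (12 in all), after 24 hours with dabrafenib at 100 nM, trametinib at 10 nM and entinostat at 1 µM together (DTE), dabrafenib and trametinib at those doses (DT), entinostat alone at that dose (E), or vehicle (DMSO). All arms are the same cell line in the same medium. Dabrafenib inhibits RAF kinases, trametinib inhibits the MEK kinases below RAF in the MAPK pathway, and entinostat blocks histone deacetylases of class I. Replicates are biological according to the titles of the samples but technical according to the text on the series, so the p-values cover no more than the spread among these arrays.

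Cadherins are calcium-dependent adhesion proteins of the cell surface. Classical cadherins bind catenins inside the cell and join cells at adherens junctions, and melanoma cells are known for exchanging E-cadherin for N-cadherin. Protocadherins are the largest branch of the family. They lack the catenin-binding tail, bind mainly to the same protein on the neighbouring cell, and are best known from neurons, where they sort and space neurites. The non-clustered ones stand alone in the genome. The clustered ones lie side by side in tandem arrays, each variable exon with its own promoter, and a neuron transcribes only a few of them. Most of those promoters hold a conserved sequence element that the insulator protein CTCF binds, and DNA methylation and histone state are known to set which promoters are used. Genes of the beta cluster consist of a single coding exon.

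The overall level varied between the arrays, which touches every value given here. The median intensity over all probe sets lay between 16.8 and 18.4 on the DTE arrays, 21.5 and 22.8 on the DT arrays, 25.2 and 31.9 on the E arrays and 21.5 and 25.2 on the DMSO arrays. The median log2 difference of all genes was -0.54 for DTE, -0.12 for DT and 0.14 for E against DMSO. Intensities and differences are those of the deposited values, and the difference after quantile normalization of all arrays to a common distribution follows as the quantile value, which is relative to that shift. Differences are given as log2 values ± the standard error from the fit across all genes (limma, 3 arrays per arm, adjusted over 14582 genes), and a gene is said to have risen or fallen where its adjusted p in deposited values was under 0.05. In bulk RNA fewer cells of a type and less RNA per cell cannot be told apart. Of the 9 melanocyte markers listed, 8 were measured and 8 were above the estimated background in each arm, with a summed intensity of 2444 to 2646 in DTE, 4232 to 4765 in DT, 4285 to 6148 in E and 5098 to 5827 in DMSO. S100B held the largest part of that sum, with means of 1548 in DTE, 2628 in DT, 2250 in E and 2542 in DMSO. Background was estimated per array from the dimmest genes. Of 4 endothelial markers 2 were measured, both above background in every arm, and their sum was 64.8 to 77.7 in DTE, 35.4 to 38.8 in DT, 213 to 314 in E and 42.1 to 59.6 in DMSO. KDR, the gene of a VEGF receptor, carried this sum, with 262 ± 55.8 in E and 39.3 ± 9.34 in DMSO (SD, n = 3 each), whereas VWF averaged 18.3 ± 2.44 in E and 14.2 ± 0.880 in DMSO and was not called (0.36 ± 0.13, adjusted p = 0.051, quantile 0.090). The part of these genes in the members' changes was not tested. The leukocyte sum (2 of 5 measured, both above background in every arm) was 50.1 to 58.3 in DTE, 77.6 to 97.8 in DT, 107 to 134 in E and 91.2 to 96.4 in DMSO. Its 2 genes moved apart. CD14 rose in E (1.11 ± 0.15, quantile 0.73) and in DT (0.90 ± 0.15, quantile 1.01). LYZ fell in DT (-0.93 ± 0.13, quantile -0.65) and measured -0.080 ± 0.13 in E (limma adjusted p = 0.71, quantile -0.29). For keratinocytes 1 of 4 measured markers was above background in every arm, and for fibroblasts 1 of 2 was in DTE and 0 in the other arms.

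Most of the members rose with entinostat, and many rose with dabrafenib plus trametinib. Of the 34, 22 rose and 0 fell in E against DMSO (limma, with 0 lower at an unadjusted p under 0.05), where 20.8% of all genes rose and 4.81% fell. In DT against DMSO 15 rose and 1 fell, where 4.72% of all genes rose and 23.1% fell. In DTE against DMSO 11 rose and 2 fell, where 4.26% of all genes rose and 60.8% fell. The median difference of the members was 0.61 for E, 0.37 for DT and 0.15 for DTE. After quantile normalization the counts of higher and lower members were 21 and 1 in E (background 15.3% and 16.2%), 19 and 0 in DT (background 14.6% and 15.0%) and 26 and 1 in DTE (background 20.0% and 23.0%). At an unadjusted p under 0.05 0 beta genes were lower in E, 0 in DT and 0 in DTE. After quantile normalization 0 members were lower in DT at that level. These 3 comparisons share the DMSO arrays. Of the members, 26 had a mean above the estimated background in at least 1 arm, and 8 never did: CDH23, PCDH8, PCDH11X, PCDH11Y, PCDH12, PCDH15, PCDH20 and PCDHB1. Their arm means lay between 3.51 and 13.7, and differences of such dim genes are not interpreted.

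**Figure D1:**
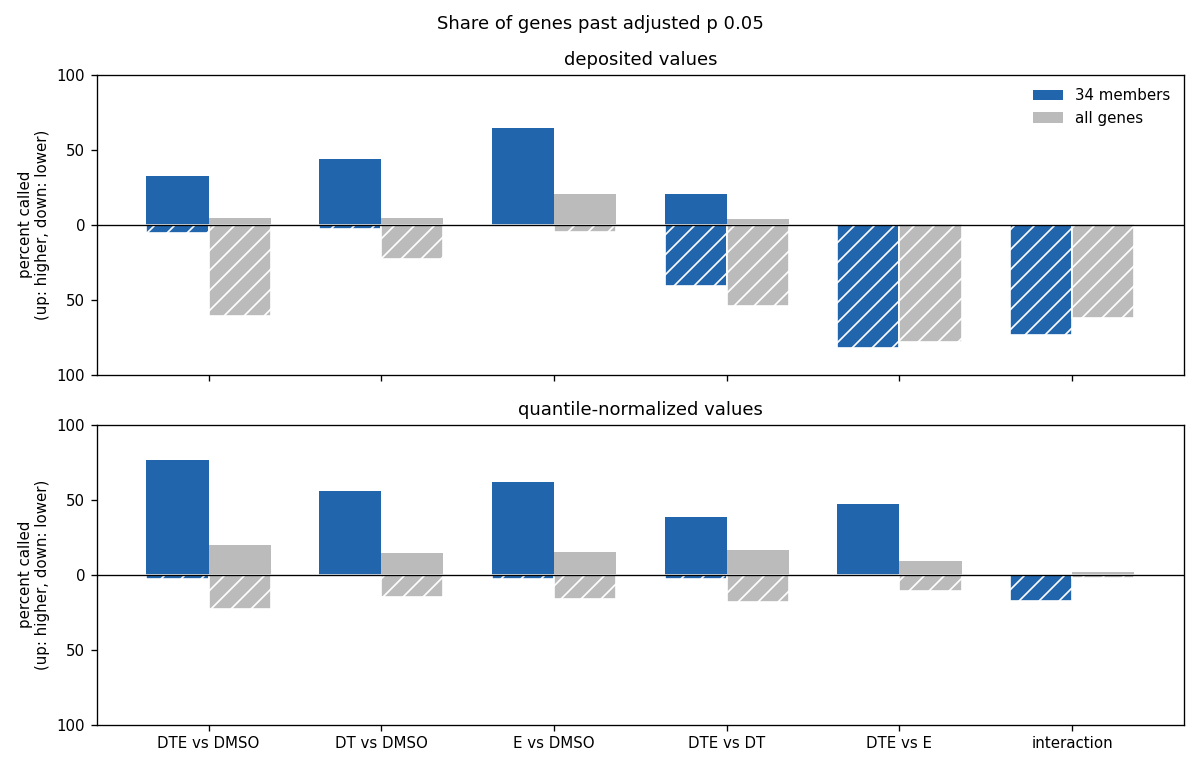
Percent of the 34 members and of all 14582 genes that were called higher (upward bars) or lower (downward, hatched bars) at an adjusted p under 0.05, for each comparison, with deposited values at the top and quantile-normalized ones at the bottom. In E against DMSO 22 of the members were higher as deposited and 21 after quantile normalization, whereas in DTE against E the direction turned with the scaling.

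Among the non-clustered protocadherins the delta-2 group held the gene with the largest response to entinostat. These proteins carry conserved motifs in their tails that reach the actin cytoskeleton. PCDH10, which recruits the WAVE actin-regulating complex in mouse cells and whose promoter is methylated in several carcinomas, was the most responsive of all 34 members. PCDH10 had 235, 216 and 249.9 in the DTE arrays, 54.9, 56.9 and 71.3 in the DT arrays, 284, 326 and 354 in the E arrays and 31.8, 24.7 and 30.5 in the DMSO arrays. Every E and DTE array lay above every DT array, and every DT array above every DMSO array. PCDH10 rose 11.1-fold with entinostat (3.47 ± 0.15, adjusted p = 4.6e-14, quantile 3.14), 8.09-fold with all agents (3.02 ± 0.15, adjusted p = 4.1e-13, quantile 3.79) and 2.10-fold with dabrafenib plus trametinib (1.07 ± 0.15, adjusted p = 4.8e-06, quantile 1.18). Adding entinostat to dabrafenib plus trametinib raised it as well (1.94 ± 0.15, quantile 2.61).

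PCDH17, a protocadherin of presynaptic and axonal contacts in mouse brain, was already well expressed without treatment. PCDH17 had 225, 264 and 266 in the DTE arrays, 125, 108 and 112 in the DT arrays, 296, 345 and 409.6 in the E arrays and 91.0, 99.6 and 82.4 in the DMSO arrays. The E and DTE arrays did not overlap with the DT and DMSO arrays. It rose 3.83-fold in E (1.94 ± 0.14, adjusted p = 4.9e-10, quantile 1.82) and 2.76-fold in DTE (1.47 ± 0.14, adjusted p = 6.1e-09, quantile 2.46). With dabrafenib plus trametinib alone it measured 0.34 ± 0.14 (adjusted p = 0.083), a difference that passed the threshold on the quantile scale alone (quantile 0.66, adjusted p = 3.3e-05).

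PCDH18, which binds the adaptor DAB1 in mouse, moved in the same arms from a level near background. PCDH18 had 22.6, 23.7 and 29.4 in the DTE arrays, 12.9, 11.2 and 13.7 in the DT arrays, 33.2, 38.3 and 46.3 in the E arrays and 11.7, 12.6 and 10.6 in the DMSO arrays. The DT and DMSO means did not exceed the estimated background of 13.1 and 12.98, so only bounds can be given. An adjusted p beside a bound is limma's for the measured values, with no floor at background, and does not test the bound. PCDH18 was at least 3.00-fold higher in E than in DMSO (adjusted p = 5.4e-09, quantile at least 2.25-fold) and at least 1.93-fold higher in DTE than in DMSO (adjusted p = 6.9e-07, quantile at least 2.71-fold). PCDH19, mutated in an epilepsy that affects mainly girls, was dimmer still. PCDH19 had 16.2, 10.6 and 15.5 in the DTE arrays, 6.52, 9.23 and 7.87 in the DT arrays, 20.3, 20.6 and 19.5 in the E arrays and 8.34, 7.77 and 7.52 in the DMSO arrays. It was at least 1.55-fold higher in E than in DMSO (adjusted p = 5.7e-07, quantile at least 1.27-fold) and at least 1.07-fold higher in DTE (adjusted p = 8.4e-05, quantile at least 1.28-fold), and array 2 of DTE lay below the estimated background of its arm, 11.5. PCDH8, the remaining delta-2 gene, stayed under background in every arm. Thus 4 of 5 delta-2 genes rose with entinostat, where 20.8% of all genes rose (quantile 4 of 5, where 15.3% did).

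The delta-1 group, whose members carry an additional tail motif that binds protein phosphatase 1, was mixed. PCDH9, widely expressed in developing cortex, rose in both arms that held entinostat. PCDH9 had 46.9, 51.4 and 56.7 in the DTE arrays, 15.6, 16.2 and 23.5 in the DT arrays, 73.3, 81.3 and 83.9 in the E arrays and 19.8, 19.7 and 16.9 in the DMSO arrays. In deposited values the E arrays lay above the DTE arrays, and both above all DT and DMSO arrays, which overlapped each other. After quantile normalization PCDH9 was higher in DTE than in E (quantile 0.52, limma adjusted p = 0.019). The rise was 4.24-fold in E (2.08 ± 0.15, adjusted p = 4.2e-10, quantile 1.66) and 2.75-fold in DTE (1.46 ± 0.15, adjusted p = 1.7e-08, quantile 2.18), while DT measured -0.047 ± 0.15 against DMSO (adjusted p = 0.87, quantile -0.0027).

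PCDH1, an adhesion protein of airway epithelium, was highest with dabrafenib plus trametinib. PCDH1 had 129.6, 138 and 141 in the DTE arrays, 252, 244 and 282 in the DT arrays, 172, 197 and 191 in the E arrays and 118, 143 and 114 in the DMSO arrays. In deposited values the DT arrays were the highest and did not overlap with any other arm. PCDH1 rose 2.09-fold in DT (1.06 ± 0.13, adjusted p = 1.7e-06, quantile 1.37) and 1.50-fold in E (0.59 ± 0.13, adjusted p = 0.002, quantile 0.46). In DTE it did not pass the threshold in deposited values (0.13 ± 0.13, adjusted p = 0.4) and was higher after quantile normalization (quantile 1.18, adjusted p = 6.2e-07). PCDH7, known to potentiate MAPK signalling through the SET protein and protein phosphatase 2A in lung cancer models, was the only member that fell in DT. PCDH7 had 34.7, 46.0 and 42.6 in the DTE arrays, 76.3, 64.9 and 62.1 in the DT arrays, 61.2, 91.7 and 106 in the E arrays and 104, 109 and 88.5 in the DMSO arrays. In deposited values its DTE arrays lay below all other arrays, and its E and DMSO arrays overlapped. PCDH7 fell in DT (-0.57 ± 0.17, adjusted p = 0.015, quantile -0.22, quantile adjusted p = 0.19), a call that was lost after quantile normalization and, by array left out, at -0.54 without DMSO array 1, -0.51 without DMSO array 2, -0.54 without DT array 2, -0.51 without DT array 3. It also fell in DTE (-1.29 ± 0.17, adjusted p = 5.8e-07, quantile -0.32, quantile adjusted p = 0.042). In E it measured -0.25 ± 0.17 (adjusted p = 0.32, quantile -0.39 with adjusted p = 0.022).

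Over the 13 non-clustered protocadherins, 7 rose and 0 fell in E, 2 rose and 1 fell in DT, and 6 rose and 1 fell in DTE, with medians of 0.42, 0.045 and 0.27. Of all genes 20.8% rose and 4.81% fell in E, 4.72% and 23.1% in DT, and 4.26% and 60.8% in DTE. After quantile normalization 6 non-clustered genes were higher and 1 lower in E (all genes 15.3% and 16.2%). The counts were 3 and 0 in DT (all genes 14.6% and 15.0%), and 8 and 1 in DTE (all genes 20.0% and 23.0%). The 8 in DTE include PCDH11X and PCDH15, which were under background in every arm. The deposited rises included 1 in E, PCDH20, and 1 in DTE, PCDH11X, of genes under background in every arm. PCDH11X and PCDH11Y are near-identical copies whose probes could share transcripts. PCDH12 (vascular endothelium) and PCDH15 (the tip link of inner-ear hair cells) passed the threshold in none of these comparisons in deposited values; PCDH15, also under background, did so in DTE after quantile normalization.

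**Figure D2:**
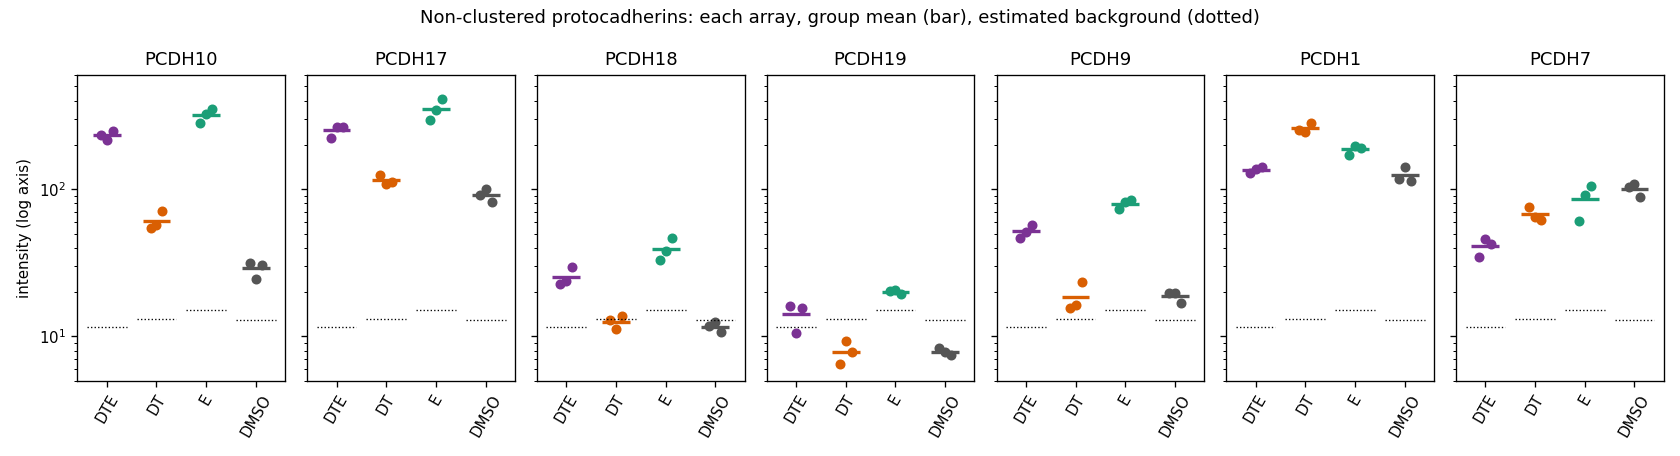
Intensity (log axis) of the 7 non-clustered protocadherins above background, with 1 point per array, the mean of each arm as a bar and its estimated background as a dotted line. PCDH10, PCDH17, PCDH18, PCDH19 and PCDH9 are high in both arms with entinostat. In these deposited values PCDH1 peaks in DT at a mean of 259, and PCDH7 is lowest in DTE at a mean of 41.1. The quantile differences from DMSO were 1.37 in DT and 1.18 in DTE for PCDH1. For PCDH7 they were -0.39 in E and -0.32 in DTE.

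The beta cluster makes up more than any other class of the members, and its promoters share a sequence. RefSeq promoters (GRCh38.p14, 250 bases before to 50 after each gene start) were at hand for 14 of the 19 genes, all on the plus strand. The 9-letter word that most of them hold, found in these same promoters, is GGTGGCGCT, which ends in the CGCT letters known from the conserved element of clustered protocadherin promoters. It stood in 13 of the 14 on the plus strand, against 0.501% of all 35116 promoters in the table when both strands are searched, and in 0 of 13 alpha, 0 of 20 gamma and 0 of 11 non-clustered genes (PCDH11X and PCDH11Y both counted) with a promoter there. These windows are shown because the exception, PCDHB1, was also the beta gene that stayed under background. That is 1 gene, and a link between its letters and its level was not tested. Capitals mark the word or, in PCDHB1, its closest match, which differs by C6T, counted from 1 at the 5′ end of the word. Genes run in chromosomal order.
PCDHB1 (chr5:141051337-141051366): ggctagcctttGGTGGTGCTgcagttagag
PCDHB2 (chr5:141094544-141094573): aagagacgcggGGTGGCGCTgcagccttag
PCDHB3 (chr5:141100393-141100422): agcgaacgcatGGTGGCGCTgttgactaag
PCDHB4 (chr5:141121723-141121752): tcaagacgcagGGTGGCGCTgcaggctaag
PCDHB5 (chr5:141135179-141135208): ttaggacgcctGGTGGCGCTgcaggctaag
PCDHB7 (chr5:141172566-141172595): acaaaacgcaaGGTGGCGCTgctggctaaa
PCDHB8 (chr5:141177777-141177806): tgaggacccgtGGTGGCGCTgcaggataag
PCDHB16 (chr5:141182310-141182339): tgagaacgcgtGGTGGCGCTgcaggttaag
PCDHB9 (chr5:141187074-141187103): ggaagccacaaGGTGGCGCTgcagactgaa
PCDHB10 (chr5:141192299-141192328): ggaggccacacGGTGGCGCTgcaggctaaa
PCDHB12 (chr5:141208643-141208672): tggagacgcgtGGTGGCGCTgcaggataat
PCDHB13 (chr5:141213865-141213894): tgaggacgcgtGGTGGCGCTgcaggataag
PCDHB14 (chr5:141223263-141223292): tggagacacatGGTGGCGCTacaggataag
PCDHB15 (chr5:141245314-141245343): agacaacgcatGGTGGCGCTgcaggctaag
The word began between positions -84 and -2 relative to the annotated gene start. A match describes the letters of these windows, not a bound site, and no match in the other clusters says only that these letters are not there.

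PCDHB1 had arm means of 8.80 in DTE, 10.5 in DT, 11.99 in E and 9.90 in DMSO, under the estimated background in each. The other 18 beta genes were above background in all 4 arms. The closest to background in DMSO were PCDHB17P, PCDHB4 and PCDHB8, with means of 15.3, 16.9 and 18.5. Intensities of different probe sets do not rank the genes' transcripts. The beta genes are close in sequence, so probes of a member can bind transcripts of its neighbours, which was not tested, and their changes are not independent.

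**Figure D3:**
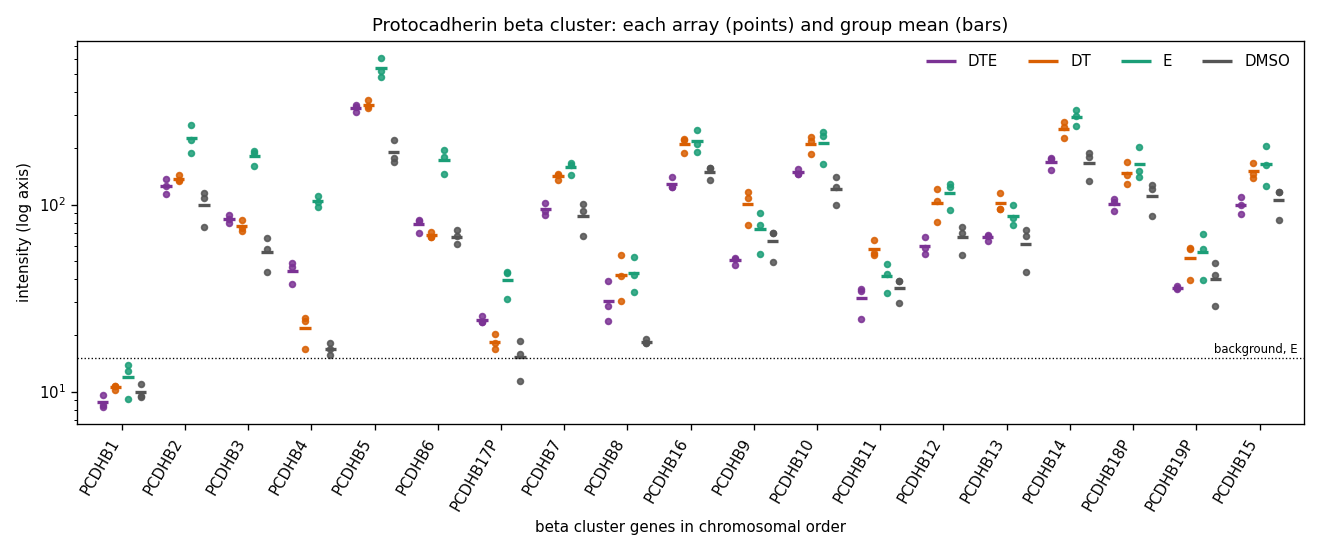
Intensity (log axis) of the 19 measured beta cluster genes in chromosomal order, with 1 point per array and a bar for each arm's mean. The dotted line is the estimated background of the E arm, 15.0. PCDHB1 lies under it in every arm, and PCDHB4 shows the widest gap, with means of 104 in E and 16.9 in DMSO.

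Entinostat raised the beta genes unequally. Of all genes 20.8% rose and 4.81% fell in E against DMSO (quantile 15.3% and 16.2%). Of the 19 beta genes 15 rose and 0 fell, with a median of 0.81 against 0.14 over all genes (quantile 0.70, with 15 higher). PCDHB4 changed the most. PCDHB4 had 48.9, 46.5 and 37.5 in the DTE arrays, 24.7, 23.8 and 16.8 in the DT arrays, 112, 103 and 96.8 in the E arrays and 18.3, 15.7 and 16.8 in the DMSO arrays. In deposited values every E array lay above every DTE array, and every DTE array above all DT and DMSO arrays. After quantile normalization its DTE and E arms were not told apart (quantile -0.11, limma adjusted p = 0.73). PCDHB4 rose 6.14-fold in E (2.62 ± 0.15, adjusted p = 1.1e-11, quantile 2.18) and 2.61-fold in DTE (1.38 ± 0.15, adjusted p = 4.2e-08, quantile 2.07), and measured 0.35 ± 0.15 in DT (adjusted p = 0.1, quantile 0.39).

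Its neighbours followed with smaller steps. PCDHB3 had 87.8, 83.8 and 80.0 in the DTE arrays, 82.5, 71.9 and 74.9 in the DT arrays, 161, 194 and 189.5 in the E arrays and 58.0, 66.3 and 43.4 in the DMSO arrays. In deposited values PCDHB3 thus separated the E arrays from all others and rose 3.28-fold in E (1.71 ± 0.15, adjusted p = 6.7e-09, quantile 1.49). It also rose in DTE (0.61 ± 0.15, adjusted p = 0.0011, quantile 1.57). After quantile normalization its DTE and E arms were not told apart (quantile 0.076, adjusted p = 0.69). PCDHB5 had 313, 341 and 333 in the DTE arrays, 360.0, 335 and 329 in the DT arrays, 483, 515 and 607 in the E arrays and 178, 223 and 169 in the DMSO arrays. PCDHB5 rose in E (1.50 ± 0.14, adjusted p = 1.8e-08, quantile 1.45), in DTE (0.80 ± 0.14, adjusted p = 2.2e-05, quantile 1.84) and in DT (0.85 ± 0.14, adjusted p = 4.9e-05, quantile 1.21), and its DTE and DT arrays overlapped. PCDHB6 had 70.4, 81.9 and 82.9 in the DTE arrays, 66.8, 67.1 and 71.4 in the DT arrays, 145, 179 and 196 in the E arrays and 67.7, 73.4 and 61.2 in the DMSO arrays. For PCDHB6 the E arrays lay above all others, and it rose in E (1.36 ± 0.14, adjusted p = 9.3e-08, quantile 1.15) but not past the threshold in DT (0.024 ± 0.14, adjusted p = 0.93). After quantile normalization DT passed for PCDHB6 (quantile 0.30, adjusted p = 0.014). In DTE PCDHB6 measured 0.22 ± 0.14 (adjusted p = 0.18, quantile 1.19 with adjusted p = 1.4e-07). Its quantile difference of DTE from E was 0.037 (adjusted p = 0.81). PCDHB2 had 114, 138 and 126 in the DTE arrays, 143, 136 and 133 in the DT arrays, 189, 222 and 265 in the E arrays and 108, 115 and 75.7 in the DMSO arrays. PCDHB2 rose in E (1.19 ± 0.16, adjusted p = 4.3e-06, quantile 1.07) and, by less, in DT (0.49 ± 0.16, adjusted p = 0.025, quantile 0.81). The pseudogene PCDHB17P rose in E (1.37 ± 0.17, quantile 0.99) and in DTE (0.69 ± 0.17, quantile 1.19) without passing the threshold in DT (0.29 ± 0.17, adjusted p = 0.22, quantile 0.33).

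The other end of the cluster responded less to entinostat. PCDHB9 had 51.9, 51.3 and 47.7 in the DTE arrays, 116, 78.1 and 108 in the DT arrays, 54.1, 77.8 and 90.1 in the E arrays and 70.3, 70.8 and 49.4 in the DMSO arrays. For PCDHB9 the E arrays overlapped with the DMSO arrays, and the difference did not pass the threshold (0.21 ± 0.18, adjusted p = 0.45, quantile -0.0079). PCDHB11 measured 0.20 ± 0.17 (adjusted p = 0.42, quantile -0.080), and PCDHB19P 0.47 ± 0.20 (adjusted p = 0.087, quantile 0.18). PCDHB10 (0.81 ± 0.16, quantile 0.70), PCDHB12 (0.79 ± 0.17, quantile 0.60), PCDHB13 (0.53 ± 0.17, quantile 0.31), PCDHB14 (0.83 ± 0.15, quantile 0.75), PCDHB15 (0.63 ± 0.17, quantile 0.49), PCDHB16 (0.54 ± 0.14, quantile 0.44) and PCDHB18P (0.57 ± 0.17, quantile 0.43) rose. Over the 8 genes from PCDHB2 to PCDHB8 the median difference of E was 1.36 (quantile 1.11), and over the 10 genes from PCDHB16 to PCDHB15 it was 0.55 (quantile 0.43), a split placed after the values were seen. Across the 18 beta genes without PCDHB1, Spearman's rho between place in the cluster and the E difference was -0.74 (quantile -0.77), and with PCDHB1 it was -0.52. For DT it was 0.14 (quantile 0.16), and for the log2 of the mean intensity -0.011. These describe genes that share arrays and related sequence, and carry no test.

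Dabrafenib plus trametinib raised 4.72% of all genes and lowered 23.1% (quantile 14.6% and 15.0%). Of the 19 beta genes 13 rose and 0 fell in DT, with a median of 0.53 against -0.12 over all genes (quantile 0.85, with 16 higher). PCDHB8 changed the most in deposited values, and PCDHB5 after quantile normalization. PCDHB8 had 28.7, 39.0 and 23.9 in the DTE arrays, 53.8, 30.6 and 41.7 in the DT arrays, 33.9, 42.1 and 52.5 in the E arrays and 18.1, 18.1 and 19.1 in the DMSO arrays. All arrays of the treated arms lay above the DMSO arrays, with a wide spread inside each treated arm. PCDHB8 rose 2.22-fold in DT (1.15 ± 0.19, adjusted p = 6.8e-05, quantile 1.20), in E (1.19 ± 0.19, adjusted p = 5.1e-05, quantile 0.80) and in DTE (0.70 ± 0.19, adjusted p = 0.0029, quantile 1.28). PCDHB10 had 146, 154 and 145 in the DTE arrays, 230.0, 185 and 219 in the DT arrays, 165, 233 and 243 in the E arrays and 140.1, 124 and 99.5 in the DMSO arrays. PCDHB10 rose in DT (0.81 ± 0.16, adjusted p = 3.9e-04, quantile 1.13), with all DT and E arrays above the DMSO arrays. PCDHB13 had 64.1, 68.6 and 68.3 in the DTE arrays, 115, 95.2 and 94.2 in the DT arrays, 77.5, 84.7 and 99.2 in the E arrays and 67.6, 73.0 and 43.7 in the DMSO arrays. In deposited values PCDHB13 was highest on average in DT, where it rose (0.75 ± 0.17, adjusted p = 0.0012, quantile 1.01). Its quantile difference from DMSO was 1.11 in DTE.

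PCDHB7 (0.72 ± 0.15, quantile 1.02), PCDHB11 (0.69 ± 0.17, quantile 0.86), PCDHB9 (0.66 ± 0.18, quantile 0.92), PCDHB14 (0.62 ± 0.15, quantile 0.95), PCDHB12 (0.61 ± 0.17, quantile 0.87), PCDHB15 (0.53 ± 0.17, quantile 0.85), PCDHB16 (0.49 ± 0.14, quantile 0.82) and PCDHB3 (0.47 ± 0.15, quantile 0.72) rose in DT as well. PCDHB9 and PCDHB11 thus rose in DT and did not pass the threshold in E, whereas PCDHB4, PCDHB6, PCDHB17P and PCDHB18P rose in E and did not pass it in DT. For PCDHB18P the DT difference was 0.42 ± 0.17 (adjusted p = 0.064, quantile 0.74 with adjusted p = 4.0e-05). Whether these genes differ between E and DT was not tested. In all, 11 beta genes rose in both comparisons, which share the DMSO arrays. Of all genes 20.8% rose in E and 4.72% in DT, and the share that rose in both was not counted. DMSO array 3, whose overall median was the lowest of its arm, held the lowest DMSO value of 17 of the 19 beta genes. Without that array 10 of all members rose in DT instead of 15, and 18 rose in E instead of 22. Among the 24 members named by rule, calls lost when an array was left out were, in DT, PCDHB3 (0.30 without DMSO array 3, 0.41 without DT array 1), PCDHB2 (0.30 without DMSO array 3, 0.45 without DT array 1, 0.49 without DT array 2), PCDHB9 (0.49 without DMSO array 3, 0.55 without DT array 1), PCDHB12 (0.46 without DMSO array 3, 0.48 without DT array 3) and PCDHB15 (0.36 without DMSO array 3, 0.45 without DT array 1). In E they were PCDHB13 (0.30 without DMSO array 3, 0.43 without E array 3), PCDHB15 (0.46 without DMSO array 3, 0.45 without E array 3) and PCDHB18P (0.40 without DMSO array 3, 0.41 without E array 3).

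**Figure D4:**
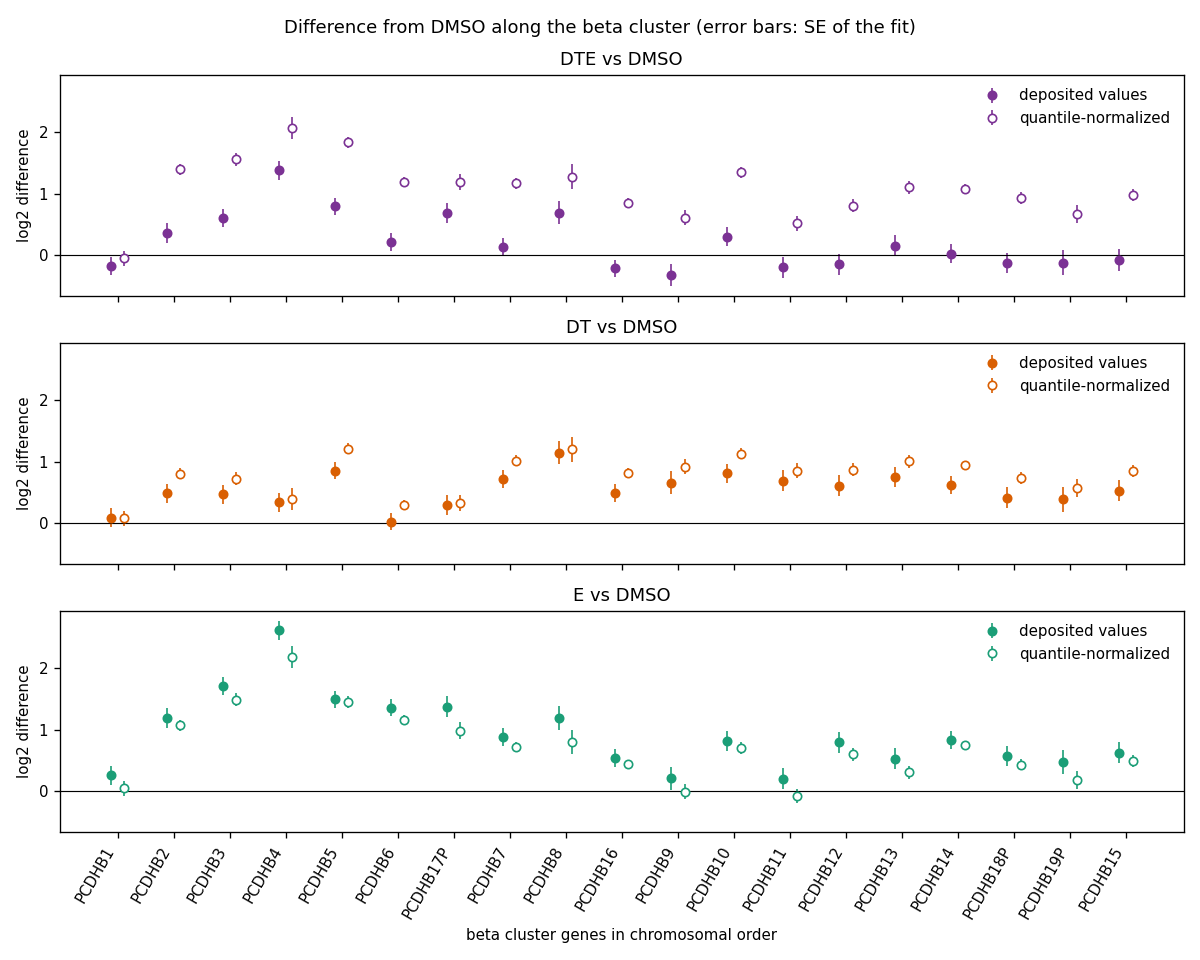
Log2 difference from DMSO (with the SE of the fit) of the 19 measured beta cluster genes in chromosomal order for DTE, DT and E, with deposited values filled and quantile-normalized ones open. The E differences are largest near PCDHB4 (2.62) and small at PCDHB9 (0.21), and quantile normalization raises the DTE differences of the 18 genes above background to between 0.52 and 2.07.

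The level of the beta genes with all agents, set against entinostat alone, depended on the scaling. In DTE against E 19 of 19 fell in deposited values, where 78.5% of all genes fell. After quantile normalization 12 were higher and 0 lower, where 9.34% and 10.8% of all genes were. In DTE against DMSO 5 of 19 rose (PCDHB3, PCDHB4, PCDHB5, PCDHB8 and PCDHB17P) and 0 fell, where 4.26% of all genes rose and 60.8% fell. The median of the 19 was 0.13, where the median of all genes was -0.54. Relative to that shift more genes were higher: 18 of 19 after quantile normalization, all but PCDHB1, with a median of 1.11. On that scale 20.0% of all genes were higher and 23.0% lower. PCDHB2 shows the difference between the scales, at 0.36 ± 0.16 (adjusted p = 0.053) and quantile 1.40 (adjusted p = 1.1e-07). Which of the scales is nearer to transcript amounts per cell was not tested.

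Adding entinostat to dabrafenib plus trametinib left 7 members higher on both scales and 1 lower on both. In DTE against DT 7 members rose and 14 fell (20.6% and 41.2%), where 4.09% of all genes rose and 54.0% fell. The share of members that fell was thus below that of all genes. After quantile normalization 13 were higher and 1 lower (background 16.2% and 18.2%). The 7 that rose were PCDH10, PCDH9 (1.51 ± 0.15, quantile 2.19), PCDH17 (1.12 ± 0.14, quantile 1.80), PCDH18 (at least 1.87-fold, quantile at least 2.64-fold), PCDH19 (at least 1.06-fold, quantile at least 1.28-fold), PCDHB4 (1.04 ± 0.15, quantile 1.68) and PCDHB17P (0.39 ± 0.17, quantile 0.86), and all 7 were higher on both scales. PCDHB11 was the only member lower on both (-0.89 ± 0.17, quantile -0.34). All 10 genes from PCDHB16 to PCDHB15 fell in deposited values, where their quantile differences lay between -0.34 and 0.22. Calls in DTE against DT that were lost when an array was left out were PCDHB17P (0.39 without DT array 2, 0.33 without DT array 3, 0.41 without DTE array 1, 0.36 without DTE array 2, 0.41 without DTE array 3) and PCDHB8 (-0.26 without DT array 1, -0.44 without DT array 3, -0.42 without DTE array 1, -0.29 without DTE array 3).

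Adding dabrafenib plus trametinib to entinostat gave a direction that depended on the scaling. In DTE against E 28 members fell and 0 rose in limma's test (with 0 higher at an unadjusted p under 0.05), where 78.5% of all genes fell and 0.247% rose, so that the members' share was near the background. After quantile normalization 0 were lower (0 at an unadjusted p under 0.05) and 16 higher (background 10.8% and 9.34%), and 16 members were called in opposite directions on the 2 scales. PCDHB13, for example, measured -0.37 ± 0.17 in deposited values and 0.80 after quantile normalization. PCDHB4 had the lowest quantile difference of the members, at -0.11 (adjusted p = 0.73). The interaction (the effect of dabrafenib plus trametinib with entinostat, minus its effect without) was called below 0 for 25 members and above 0 for 0 (also 0 at an unadjusted p under 0.05), where 62.5% of all genes were called below and 0.206% above. After quantile normalization 6 members kept a call below 0 and 0 had one above 0 (background 2.19% and 1.91%, with 2 members above 0 at an unadjusted p under 0.05): PCDHB5 (quantile -0.83), PCDHB12 (quantile -0.66), PCDH1 (quantile -0.65), PCDHB3 (quantile -0.65), PCDHB14 (quantile -0.62) and PCDHB7 (quantile -0.57). Calls in DTE against E that were lost when an array was left out were PCDH19 (-0.35 without DTE array 2), PCDHB8 (-0.34 without E array 3, -0.47 without DTE array 1, -0.33 without DTE array 3), PCDHB9 (-0.37 without E array 3), PCDHB11 (-0.37 without E array 2, -0.28 without E array 3, -0.23 without DTE array 1) and PCDHB13 (-0.39 without E array 2, -0.28 without E array 3, -0.34 without DTE array 1, -0.39 without DTE array 2, -0.39 without DTE array 3). For the interaction, among the 22 members named by rule and above background in every arm, the call was lost for PCDH9 (-0.50 without DMSO array 3, -0.39 without DT array 3, -0.56 without E array 2, -0.54 without E array 3, -0.51 without DTE array 1). PCDH18, PCDH19 and PCDHB1 count among the 25 but rest on arms under background, so their interactions are given no size.

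The CDH genes gave little signal. CDH23, which forms the upper part of the hair-cell tip link, was under background in every arm. CDH26, a cadherin of epithelia in allergic inflammation, exceeded it in DMSO only, with 9.69, 10.1 and 12.9 in the DTE arrays, 13.8, 12.2 and 12.5 in the DT arrays, 14.5, 15.7 and 12.5 in the E arrays and 16.01, 16.6 and 12.4 in the DMSO arrays. Its DTE mean was under background, so only a bound can be given: at least 1.27-fold lower in DTE (quantile at least 1.09-fold). The measured difference, not the bound, had an adjusted p of 0.0098 in limma's test. The call was lost after quantile normalization (adjusted p = 0.13).

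Related adhesion genes were described from lists of partners and regulators. Beside their counts, 20.8% of all genes rose and 4.81% fell in E (quantile 15.3% and 16.2%), and 4.72% rose and 23.1% fell in DT (quantile 14.6% and 15.0%). With lists this short, rises of 2 in 8 or 1 in 6 genes in E lie near the share of all genes. Among other members of the cadherin superfamily 6 of 14 rose and 0 fell (quantile 4 and 1) in E. CLSTN3, a calsyntenin of the synapse, averaged 142 ± 30.9 in E and 27.8 ± 4.91 in DMSO (SD, n = 3 each), a rise of 2.34 ± 0.23, quantile 1.97. The giant cadherin FAT4 rose as well (1.62 ± 0.16, quantile 1.20). Of the desmosomal cadherins and their plaque proteins, 5 of 11 rose and 0 fell (quantile 3 and 0) in E. DSG3 (a bound of at least 1.87-fold in deposited values and 1.49-fold after quantile normalization) and DSC2 (at least 1.83-fold and 1.45-fold on the same scales) started under background, and plakophilin 2, PKP2, rose (1.16 ± 0.17, quantile 0.80). In both lists 0 genes were lower in E at an unadjusted p under 0.05. In DT 0 of these 11 passed limma's test (0 higher and 1 lower at an unadjusted p under 0.05, and 0 after quantile normalization). Of the catenins 3 of 10 were measured, and plakoglobin, JUP, which links cadherins to the cytoskeleton, rose in E (1.30 ± 0.14, quantile 1.16). Of the adherens junction linkers 5 of 8 rose and 0 fell (quantile 5 and 1) in E, among them vinculin, VCL (0.91 ± 0.16, quantile 0.86), the nectin NECTIN2 (0.78 ± 0.15, quantile 0.55) and AJUBA (0.78 ± 0.13, quantile 0.44), which also rose in DT (1.22 ± 0.13, quantile 1.29).

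Transcription factors of the cadherin switch went separate ways. ZEB2 (1.26 ± 0.15, quantile 1.54) and TCF4 (0.72 ± 0.15, quantile 1.05) rose in DT, where TWIST1 fell (-0.75 ± 0.16, quantile -0.51). In E SNAI2 fell (-0.75 ± 0.14, quantile -0.86), and SNAI1 (0.83 ± 0.18, quantile 0.47) and ZEB1 (0.71 ± 0.16, quantile 0.37) rose. In this list 2 of 8 rose and 3 fell (quantile 2 and 3) in DT, and 2 of 8 rose and 1 fell (quantile 2 and 2) in E. Of the chromatin factors known to act on the protocadherin clusters, 0 of 13 rose and 7 fell (quantile 3 and 4) in DT, with 1 higher at an unadjusted p under 0.05, and 1 of 13 rose and 1 fell (quantile 1 and 4) in E. The maintenance methyltransferase DNMT1 (-1.23 ± 0.15, quantile -0.89) and the cohesin subunits SMC1A (-1.03 ± 0.16, quantile -0.65) and SMC3 (-0.64 ± 0.16, quantile -0.30) fell in DT. CTCF, given here because it binds the conserved promoter element, also fell in DT (-0.50 ± 0.15, quantile -0.17), a call that was lost after quantile normalization (adjusted p = 0.18). In E it measured -0.37 ± 0.15 (adjusted p = 0.08) and was lower after quantile normalization (quantile -0.45, adjusted p = 0.0014). In DTE it fell (-1.67 ± 0.15, quantile -0.65), as did 13 of the 13 factors, itself included, where 60.8% of all genes fell. After quantile normalization 1 factor was higher and 7 lower in DTE, where 20.0% and 23.0% of all genes were. The part of these factors in the changes of the beta genes was not tested. Of 6 measured cytoplasmic effectors of protocadherins 0 passed limma's test in E (0 higher and 0 lower at an unadjusted p under 0.05, quantile 0 and 1) and 0 in DT (0 higher and 2 lower at an unadjusted p under 0.05, quantile 2 and 0). In DTE 6 of the 6 effectors fell against DMSO, where 60.8% of all genes fell (quantile 1 lower, where 23.0% of all genes were). Against DT 6 fell, where 54.0% of all genes fell (quantile 5 lower, where 18.2% of all genes were). Of 6 measured proteases that cut cadherins, 1 of 6 rose and 1 fell (quantile 1 and 2) in E.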

How the data were processed

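RNA from 12 samples of SK-MEL-2 cells, 3 per arm, was hybridised to Affymetrix arrays. A spike-in mix was added before extraction, per the labels' protocols. The authors deposited linear intensities for 29398 probe sets. RMA and the Transcriptome Analysis Console are named per the submitters' processing notes, and the sources used here do not say whether arrays were rescaled to each other. The number of arrays limits the precision. The platform's annotation named 1 gene for 14750 probe sets (50.2%), and the brightest probe set per gene left 14582 genes. Log2 intensities, with no pseudocount, were fitted with limma 3.58.1 in R 4.3.3 (1 mean per arm, contrasts, eBayes, two-sided, Benjamini-Hochberg adjustment over all 14582 genes, threshold 0.05). Since the files turned out to hold linear values, their log2 was taken before the fit. Values after quantile normalization over all probe sets stand beside most results, and the other alternatives are in the closing section. The estimated background was the 95th percentile, per array, of the dimmest 25% of genes, averaged over the arm. An arm at or below it gives only a bound, in which its values are raised to background where lower. The adjusted p beside a bound belongs to the fit of the measured values.

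Members were named with values where they passed the threshold in any of 6 comparisons and exceeded background in any arm, at most 24 by largest difference. PCDHB19P and CDH26 fell outside that number and are given as well. Up to 3 genes per other list and comparison were named by smallest adjusted p. Members and lists were chosen with earlier results of these data known. The fit was tested on simulated data. Promoter sequences are RefSeq's (GRCh38.p14). PCDHB6, PCDHB11, PCDHB17P, PCDHB18P and PCDHB19P had none in the table used.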

Additional observations from a re-analysis of the deposited data

Results flagged for a closer look

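The effect of dabrafenib plus trametinib was different with and without entinostat, by limma's interaction test in deposited values, for 21 of the 22 members named by rule whose mean exceeded background in every arm. All 21 interactions were below 0. So were those of nearly all genes: 912 of 14582 were above 0, 62.5% were called below 0, and the median was -0.63. PCDH18 and PCDH19 were under background in DT and DMSO, so no size is given for their interactions here. Among the non-clustered protocadherins the log2 interaction was called for PCDH10 (-1.53, quantile -0.53), PCDH9 (-0.58, quantile 0.52), PCDH17 (-0.81, quantile -0.024) and PCDH1 (-1.51, quantile -0.65). In the beta cluster it was called for PCDHB2 (-1.31, quantile -0.48), PCDHB3 (-1.58, quantile -0.65), PCDHB4 (-1.58, quantile -0.51), PCDHB5 (-1.55, quantile -0.83), PCDHB6 (-1.16, quantile -0.26), PCDHB17P (-0.98, quantile -0.13), PCDHB7 (-1.47, quantile -0.57), PCDHB8 (-1.65, quantile -0.72) and PCDHB16 (-1.24, quantile -0.41). Further along the cluster it was called for PCDHB9 (-1.19, quantile -0.30), PCDHB10 (-1.32, quantile -0.48), PCDHB11 (-1.09, quantile -0.26), PCDHB12 (-1.55, quantile -0.66), PCDHB13 (-1.12, quantile -0.21), PCDHB14 (-1.42, quantile -0.62), PCDHB18P (-1.11, quantile -0.23) and PCDHB15 (-1.23, quantile -0.36). After quantile normalization the call remained for PCDH1, PCDHB3, PCDHB5, PCDHB7, PCDHB12 and PCDHB14 among them.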

How the results depend on the processing

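The scaling between arrays moved the counts most. Members higher and lower numbered 19 and 0 in DT against DMSO after quantile normalization, 21 and 1 in E against DMSO, 26 and 1 in DTE against DMSO, 13 and 1 in DTE against DT, 16 and 0 in DTE against E, and 0 and 6 for the interaction. With each array centred on its median they numbered 19 and 1, 17 and 2, 23 and 1, 14 and 6, 9 and 4, and 3 and 14, in the same order of comparisons. An intensity trend with robust eBayes gave 1 higher member in DTE against E. The cause of these moves was not tested. Log2 differences that turned after quantile normalization were, in DTE against DT, PCDHB8 0.079, PCDHB7 0.15, PCDHB14 0.13, PCDHB10 0.22, PCDHB13 0.10, PCDHB16 0.031, PCDHB15 0.14 and PCDHB18P 0.20. In DTE against E they were PCDH10 0.65, PCDH9 0.52, PCDH17 0.64, PCDH18 0.27, PCDHB3 0.076, PCDHB5 0.39, PCDHB17P 0.21, PCDH19 0.013, PCDHB6 0.037, PCDH7 0.070, PCDHB8 0.48, PCDHB2 0.33, PCDH1 0.72, PCDHB9 0.62, PCDHB12 0.21, PCDHB11 0.60, PCDHB7 0.45, PCDHB14 0.33, PCDHB10 0.65, PCDHB13 0.80, PCDHB16 0.42, PCDHB15 0.49 and PCDHB18P 0.50. For the interaction they were PCDH9 0.52, PCDH18 0.17 and PCDH19 0.039, where PCDH18 and PCDH19 rest on arms under background and their sizes are not interpreted. With median centring, those that turned in DTE against E were PCDH10 0.24, PCDH9 0.076, PCDH17 0.23, PCDH18 0.067, PCDHB5 0.0031, PCDHB17P 0.015, PCDH19 0.16, PCDHB8 0.20, PCDH1 0.25, PCDHB9 0.17, PCDHB11 0.30, PCDHB10 0.19, PCDHB13 0.33 and PCDHB18P 0.0051, and for the interaction PCDH9 0.034 and PCDH19 0.082. Leaving out each array in turn gave 10 to 16 higher and 0 to 1 lower members in DT against DMSO, 18 to 24 and 0 to 0 in E, 10 to 12 and 1 to 3 in DTE, 6 to 7 and 12 to 14 in DTE against DT, 0 to 0 and 21 to 28 in DTE against E, and 0 to 0 and 22 to 26 for the interaction. After each arm's mean was removed, the 18 correlations between same-numbered arrays of different arms lay between -0.22 and 0.13, with 2 over 0.1. The 36 between arrays of other numbers lay between -0.14 and 0.27, with 8 over 0.1. With means of 3 arrays, such correlations cannot show whether the replicates were run as matched sets. A fit with the replicate block gave 15 higher and 1 lower members in DT against DMSO, 22 and 0 in E, 11 and 2 in DTE, 6 and 13 in DTE against DT, 0 and 27 in DTE against E, and 0 and 23 for the interaction. A fit of the compared arms alone, the mean of a gene's probe sets, leaving out dim genes and a pseudocount of 16 kept each of these counts within 1.5 times. The fit of the compared arms alone was not run for the interaction, which uses all arms. Signal near background limits PCDH18, PCDH19 and CDH26, and with 3 arrays per arm small differences may be missed.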
